A study of Mus musculus with 4 samples.

Results

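Collagen genes were followed across the cell types of 4 mouse single-cell RNA libraries. All gene symbols made of Col, a number, the letter a and a second number were taken, which gave 44 of the 32285 genes in the matrices. They were sorted by the assembly their protein forms into 11 fibrillar, 8 basement membrane and 9 network collagens and 16 others. The libraries came from a normal pancreas, a pancreas in which a suture ligation blocked the duct to bring on pancreatitis, and 2 KPC tumours, a control and an AF12198-treated one, with 1 library for each group. KPC is a pancreatic cancer cell line of the mouse, and both tumours were grown by injecting them into a ligated pancreas, so that the tumour groups also carried the ligation. The tumour-bearing mice were injected into the peritoneum every week with saline or with AF12198, a peptide that blocks the interleukin-1 receptor IL1R1, and all tissues were taken at 4 weeks. Neither mouse strain, age and sex nor the number of animals behind a library is given in the sources used here, and host epithelial cells were not separated from injected KPC cells.

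A collagen molecule is a triple helix of 3 α chains, each encoded by its own gene. Fibrillar collagens, chiefly types I and III in soft tissue, assemble into the cross-linked fibres that give a tissue its tensile strength. Type IV collagen forms the sheet of the basement membrane under epithelia and around vessels, whereas types VI and VIII form beaded filaments and networks. Pancreatic ductal adenocarcinoma is known for a dense stroma rich in fibrillar collagen, laid down largely by fibroblasts. The tissue was dissociated with collagenases, which cut the protein, and the values here are counts of messenger RNA.

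After filtering, 1771, 1124, 19235 and 18874 cells remained in the normal, ligated, control tumour and AF12198 tumour libraries, the order used for every series of 4 values below. Median depth was 1589, 2216, 2035 and 2298 unique molecular identifiers (UMIs, 1 for each captured RNA molecule) per cell. Any pair of libraries shared between 1 and 129 cell barcodes. Cells were clustered without the collagen genes and named by markers that include none, with the ending -like because nothing else identified them. The UMIs of all cells of a type in a library were summed and are given as CPM, the count relative to all UMIs of that type on the usual CPM scale. Because 1 library stands for each group, no test was possible. The tissue, the animal and the library preparation cannot be told apart, and every 95% interval in parentheses covers counting error only. A collagen was counted as higher or lower at a ratio of 2 or more between libraries when its mean level was at least 10 CPM. The share of all genes that met this rule is given with the counts made by it. Counts at 1.5-fold have their own share, whereas counts under other settings are given without one.

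The members that lie beside each other in the genome are of interest because some of them share a start region. By GENCODE M21 coordinates on GRCm38, Col4a1 (chr8:11198423-11312826, minus strand) and Col4a2 (chr8:11312805-11449287, plus strand) point away from each other and their first exons overlap by 22 bases. Col4a4 and Col4a3 on chromosome 1 are arranged in the same way with 71 bases between them, as are Col4a6 and Col4a5 on chromosome X with 1308 bases between them. RefSeq promoter windows, from 250 bases before to 50 after a start, were at hand for 35 of the 44 symbols, as 38 windows. Shown here are the window shared by the pair that makes the main basement membrane chains, those of Col1a2 (chain α2 of type I) and Col3a1 (type III), which carried much of the fibrillar RNA, and that of Col8a1 (type VIII), whose level in fibroblast-like cells was far higher in the tumours than in either pancreas. Capitals mark 3 of 4 short motifs, searched on both strands so that the reverse complement counts too. The GC box was spelled GGGCGG. For the CCAAT box the letters of its name were used, and for the TATA box TATAAA. No motif contains another. All windows are RefSeq sequence of build GRCm38.p6, written in the direction of the gene named. The first is chr8:11312555-11312854 on the plus strand, the second chr6:4505368-4505667 on the plus strand, the third chr1:45311288-45311587 on the plus strand and the last chr16:57754688-57754987 on the minus strand.
Col4a2 (with the start of Col4a1): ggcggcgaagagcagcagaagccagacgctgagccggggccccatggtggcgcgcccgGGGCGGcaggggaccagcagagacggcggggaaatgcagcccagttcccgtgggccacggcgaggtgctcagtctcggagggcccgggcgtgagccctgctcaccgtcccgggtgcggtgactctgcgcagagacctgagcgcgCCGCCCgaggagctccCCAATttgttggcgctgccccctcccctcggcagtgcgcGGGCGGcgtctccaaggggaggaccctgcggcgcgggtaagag
Col1a2: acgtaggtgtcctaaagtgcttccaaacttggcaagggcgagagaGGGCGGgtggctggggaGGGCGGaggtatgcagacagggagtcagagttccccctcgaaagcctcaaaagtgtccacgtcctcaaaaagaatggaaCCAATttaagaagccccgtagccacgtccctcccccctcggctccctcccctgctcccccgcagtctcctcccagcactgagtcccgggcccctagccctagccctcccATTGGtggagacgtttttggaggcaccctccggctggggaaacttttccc
Col3a1: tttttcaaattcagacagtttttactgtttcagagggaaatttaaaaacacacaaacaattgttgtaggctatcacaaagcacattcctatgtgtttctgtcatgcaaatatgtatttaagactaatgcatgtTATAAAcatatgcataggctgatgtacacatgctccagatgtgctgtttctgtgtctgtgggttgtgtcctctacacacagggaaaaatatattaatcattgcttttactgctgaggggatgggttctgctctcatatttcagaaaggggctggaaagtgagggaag
Col8a1: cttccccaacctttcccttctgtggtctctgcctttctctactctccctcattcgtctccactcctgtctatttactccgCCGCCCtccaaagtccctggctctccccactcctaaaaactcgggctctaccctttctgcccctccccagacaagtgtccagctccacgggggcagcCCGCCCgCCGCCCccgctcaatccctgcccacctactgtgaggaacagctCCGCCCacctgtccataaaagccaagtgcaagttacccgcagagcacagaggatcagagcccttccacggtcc
The window over the overlapping starts of Col4a1 and Col4a2 held 3 GC boxes and 1 CCAAT box, that of Col1a2 2 of each, that of Col8a1 4 GC boxes and that of Col3a1 1 TATA box. A GC box was present in 23 of the 38 collagen windows (60.5%) and in 35.7% of 32851 mouse windows of the same length. For the CCAAT box these shares were 13 of 38 (34.2%) and 37.4%, and for the TATA box 5 of 38 (13.2%) and 13.6%. The fourth motif, the AP-1 site TGANTCA, was in 1 of 38 collagen windows (2.63%), that of Col6a1, and in 7.81% of all windows. A match is a stretch of letters and does not show that a factor binds there.

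Fibroblast-like cells carried most of the collagen RNA in each library. They formed 1 cluster of 92, 277, 1348 and 520 cells in which all 16 fibroblast markers were raised, led by Sfrp1, Dcn, Cilp and Dpt. They held 59.5% (58.9 to 60.2) of all collagen UMIs in the normal pancreas, 96.1% (95.9 to 96.2) in the ligated pancreas, 93.04% (92.99 to 93.10) in the control tumour and 89.2% (89.1 to 89.3) in the AF12198 tumour, although they were 5.19, 24.6, 7.01 and 2.76% of the cells. In the normal pancreas the rest lay mainly in epithelial-like cells, with 25.5%, and endothelial-like cells, with 13.9%. Over whole libraries collagens took 0.182, 1.98, 0.936 and 0.348% of the UMIs, a share that combines how many fibroblast-like cells were captured with how much collagen RNA each held. Every collagen had a UMI in at least 1 library, and 23, 25, 33 and 29 of them had at least 50.

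Cell types with at least 25 cells in a library were ranked by their level of each collagen that had at least 50 UMIs there. Fibroblast-like cells ranked highest for 16 of 23 in the normal pancreas, 19 of 25 in the ligated pancreas, 21 of 33 in the control tumour and 20 of 29 in the AF12198 tumour. The other 7, 6, 12 and 9 were highest elsewhere. Col4a1 and Col4a2 were highest in endothelial-like cells in the first 3 libraries, Col13a1, a transmembrane collagen, was highest there in the normal pancreas and both tumours, and Col18a1, the source of endostatin, was highest in epithelial-like cells of the normal and ligated pancreas and in pericyte-like cells of the tumours. Col4a5, Col9a3 and Col27a1 were highest in epithelial-like cells of the normal and ligated pancreas. For Col4a5 in the ligated pancreas and Col27a1 in both, the interval overlapped that of fibroblast-like cells. In the tumours pericyte-like cells were also highest for Col5a3 and Col6a3, for Col4a4 and Col7a1 in the control tumour only, and for Col4a1, Col4a2 and Col11a2 in the AF12198 tumour only. The rest were Col9a3 and Col27a1 in epithelial-like, Col11a2 in neutrophil-like and Col20a1 in acinar-like cells of the control tumour, with Col9a3 in mast/basophil-like and Col23a1 in endothelial-like cells of the AF12198 tumour. Many of these orders are not settled by the counts. The interval overlapped that of the next cell type for Col9a3 outside the normal pancreas, for Col18a1 in the ligated pancreas, for Col4a2, Col7a1, Col11a2 and Col20a1 in the control tumour and for Col4a1, Col4a2, Col5a3, Col6a3, Col11a2 and Col23a1 in the AF12198 tumour. In the ligated pancreas 20 pericyte-like cells, too few to be ranked, had 4112 CPM of Col4a1, 2040.1 CPM of Col4a2 and 633 CPM of Col18a1, above the cell types ranked highest.

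**Figure D1:**
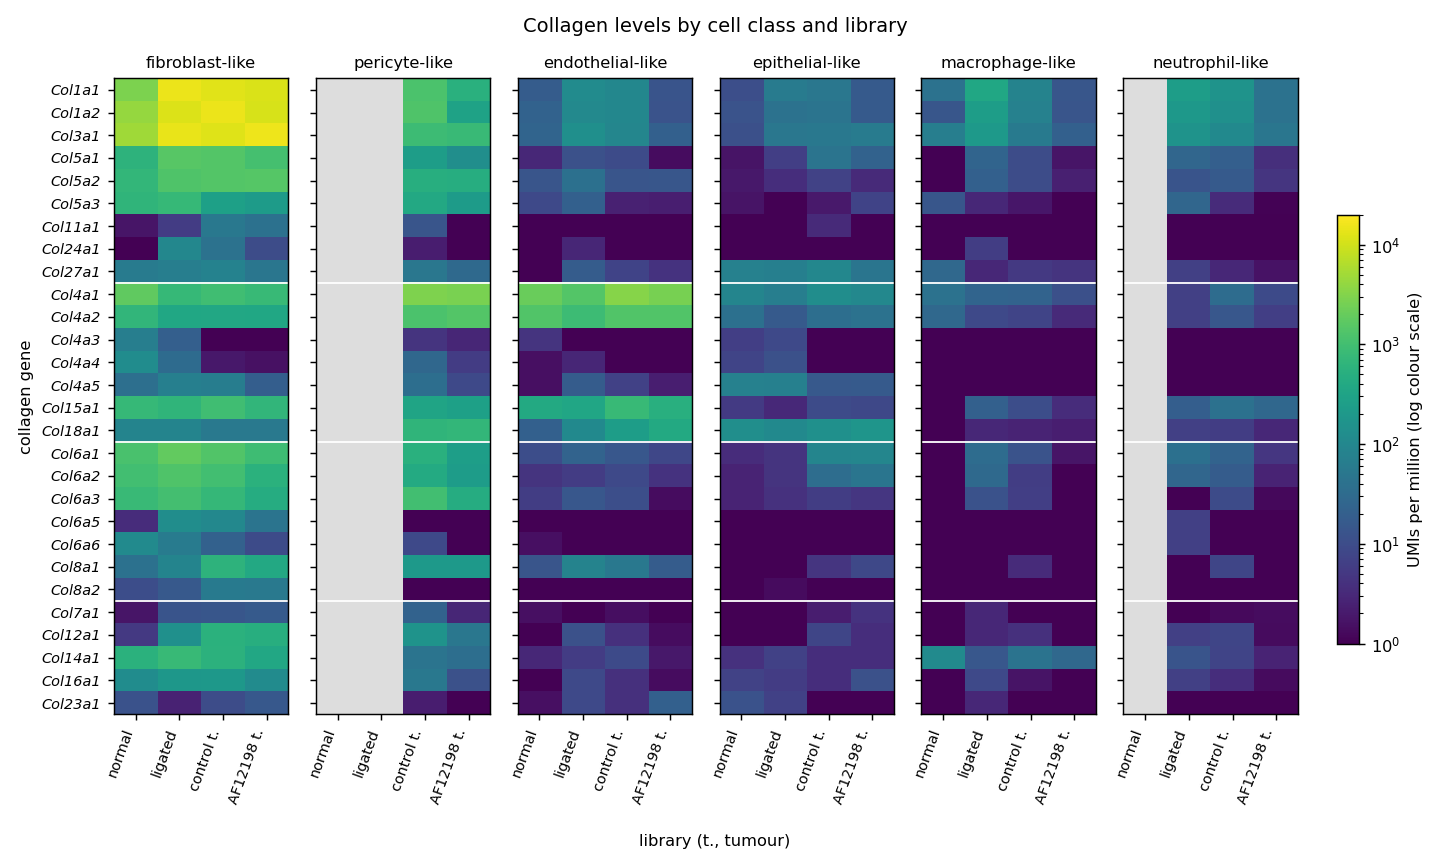
Level of 28 collagens (rows, in 4 groups set apart by white lines) in 6 marker-defined cell types of the 4 libraries (columns), in CPM on a log colour scale, with grey where a library held under 25 cells of the type. Fibrillar collagens are bright in the fibroblast-like columns, whereas Col4a1, Col4a2, Col15a1 and Col18a1 are also bright in the endothelial-like columns.

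Free RNA from broken cells can enter any droplet, so collagen UMIs in cells not known to make collagen were taken as a reference for it. T-, NK-, B- and neutrophil-like cells together held 48.8, 949, 555 and 169 collagen CPM, of which Col1a1 made up 0, 251, 141 and 33.5 CPM. The normal pancreas contributed only 20 such cells. The Col1a1 levels of fibroblast-like cells, given below, lay far above these values in every library, and the lower levels of other cell types are set beside them.

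Within fibroblast-like cells, collagens took 2.14% (2.10 to 2.18) of the UMIs in the normal pancreas, 5.29% (5.26 to 5.32) in the ligated pancreas, 5.10% (5.09 to 5.11) in the control tumour and 4.59% (4.58 to 4.61) in the AF12198 tumour. The ligated share was 2.47 times the normal one (2.42 to 2.52). Cells were unequal, however, and the summed share of the ligated pancreas rested on few of them. There, 50% of the collagen UMIs were held by 21 of 277 cells, compared with 16 of 92, 240 of 1348 and 99 of 520 in the other libraries. Taken cell by cell, the median share was 1.85, 2.5, 4.05 and 3.69%, with 10th to 90th percentiles of 0.716 to 3.004, 1.00 to 7.96, 1.58 to 7.85 and 1.09 to 7.48%. With each cell weighted equally, the ligated share was 1.82 times the normal one, and the ratio of control tumour to ligated pancreas turned from 0.964 to 1.26. Cells with more UMIs had the larger share in every library: below and above the median depth it was 1.71 and 2.22% in the normal, 2.62 and 5.78% in the ligated, 3.72 and 5.53% in the control tumour and 3.38 and 4.96% in the AF12198 tumour cells. Median depths differed too, at 3925, 4628, 8520.5 and 9481 UMIs, and the part of depth in these shares was not tested.

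**Figure D2:**
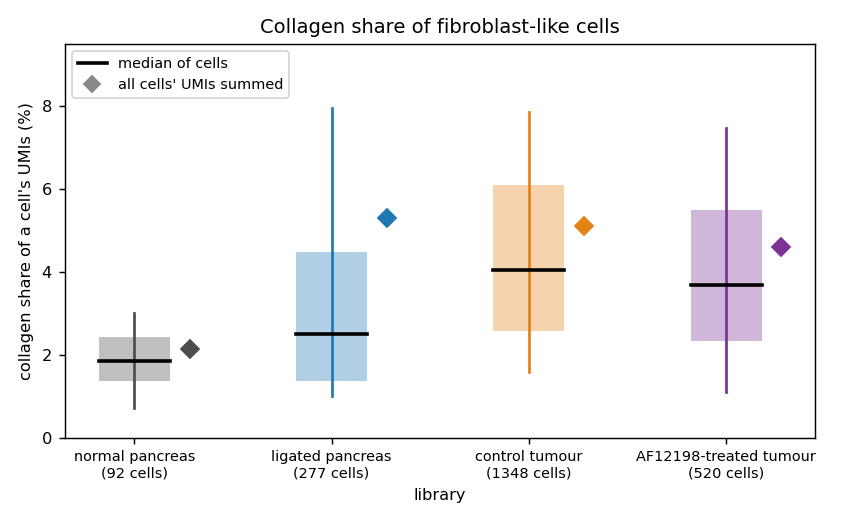
Percent of a cell's UMIs that fall on the 44 collagen genes, over the fibroblast-like cells of each library, with the median (bar), 25th to 75th percentile (box), 10th to 90th percentile (line) and the share of all cells' UMIs summed (diamond). The medians are 1.85, 2.5, 4.05 and 3.69%, and the ligated pancreas has the largest gap between its median and its summed share of 5.29%.

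The make-up of the collagen RNA differed between the normal and the ligated pancreas. Fibrillar collagens were 65.5% of the collagen UMIs of fibroblast-like cells in the normal pancreas and 85.5% in the ligated pancreas, and stayed at 85.0 and 88.3% in the tumours. Basement membrane collagens made up 16.5, 3.76, 4.77 and 4.18%, network collagens 14.7, 8.55, 7.59 and 5.28%, and the others 3.33, 2.17, 2.67 and 2.27%. The sum of types I and III alone was 56.0, 78.4, 78.5 and 82.0%. These shares are taken within the collagens, so that a larger fibrillar part lowers the others.

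Of the 44 collagens, 28 had a mean of at least 10 CPM over the 4 libraries in fibroblast-like cells. The other 16 reached at most 11.1 CPM in any library, and Col19a1 had no UMI in these cells. Comparing ligated with normal pancreas, 25 collagens could be measured. Of these, 8 were higher, where 8.31% of 8651 genes were, and 3 were lower, where 8.05% of genes were. The median log2 ratio was 0.62 for the collagens and -0.04 for all genes. Fibrillar collagens accounted for 5 of the 8 that were higher, and type IV chains for all 3 that were lower. At a threshold of 1.5-fold, 13 were higher, where 17.7% of genes were, and 5 lower, where 19.6% were.

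Among the fibrillar collagens, Col1a1, chain α1 of type I, stood at 2878, 15050.5, 13019 and 11339.7 CPM and was 5.23-fold (4.98 to 5.50) higher in the ligated than in the normal pancreas. Col1a2, its partner chain, stood at 4248, 12045, 14784 and 11063 CPM and was 2.84-fold (2.72 to 2.96) higher. For Col3a1 the levels were 4867, 14396, 12259 and 15258 CPM, a difference of 2.96-fold (2.84 to 3.08). In all 3 genes the normal pancreas was low and the other 3 libraries were close to each other. The 2 chains of type I did not move by the same factor: there were 0.677 (0.636 to 0.722) UMIs of Col1a1 for each of Col1a2 in the normal and 1.25 (1.23 to 1.27) in the ligated pancreas, then 0.881 and 1.03 in the tumours.

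Type V collagen joins type I fibrils and limits their width. Col5a1 was measured at 611, 1517, 1391 and 1082 CPM and was 2.48-fold (2.22 to 2.78) higher after ligation, whereas Col5a2, at 696, 1294, 1439.5 and 1470.5 CPM, differed by 1.86-fold (1.67 to 2.07) and did not reach the 2-fold rule. Col5a3, the third type V chain, followed another pattern, with 650.1, 760.1, 276 and 226 CPM. It was 2.76-fold (2.59 to 2.93) lower in the control tumour than in the ligated pancreas, and its UMIs for each of Col5a2 went from 0.934 (0.809 to 1.08) in the normal to 0.587, 0.191 and 0.154 (0.145 to 0.163) in the others. The minor fibrillar collagen Col24a1 had no UMI in the normal fibroblast-like cells and 98.2, 41.9 and 10.02 CPM in the other libraries, at least 18.6-fold higher in the ligated pancreas against a floor of 3 counts in the normal library. Col24a1 was thus highest in the ligated pancreas and lower in each tumour.

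**Figure D3:**
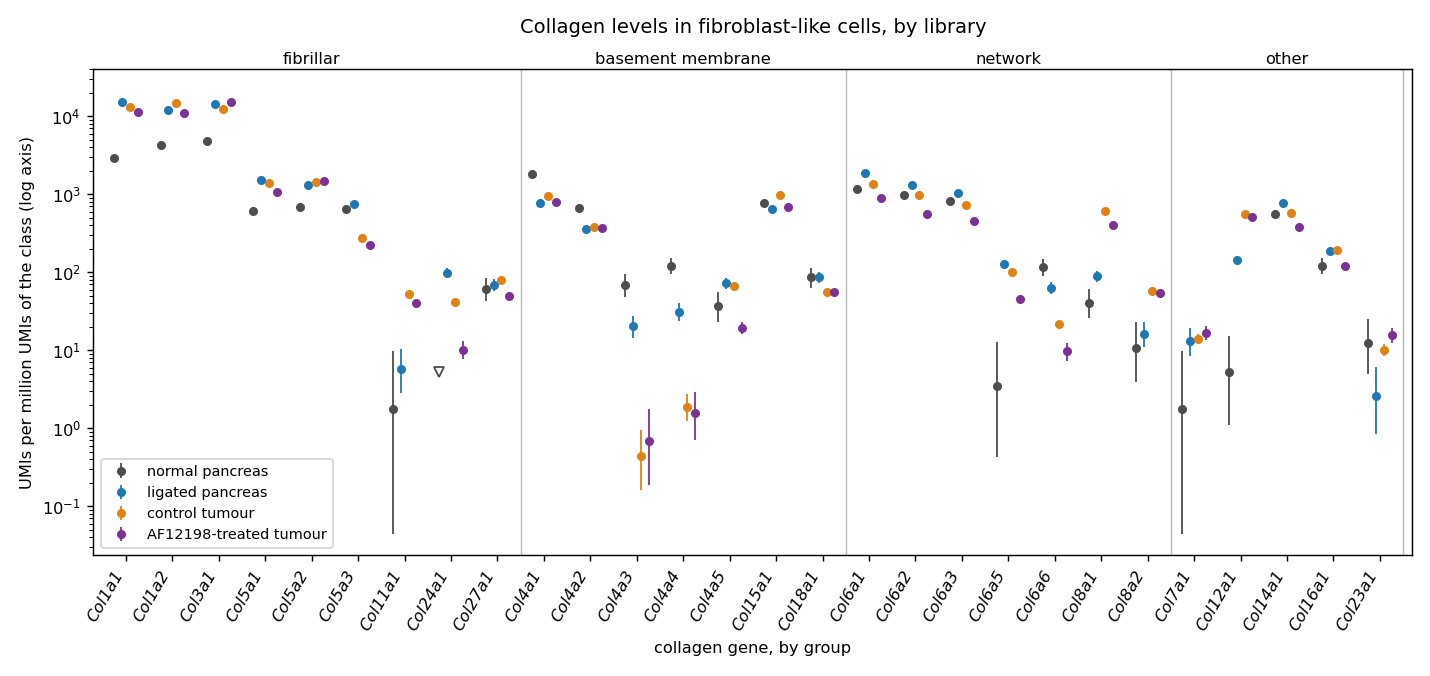
Level of the 28 collagens described in fibroblast-like cells of the 4 libraries, in CPM on a log10 axis, with 95% counting intervals and grouped by assembly (open triangle: no UMI, drawn at the level of 3 counts). Col1a1 lies at 2878 CPM in the normal pancreas and between 11339.7 and 15050.5 CPM in the other 3 libraries, whereas Col4a1 is highest in the normal pancreas at 1790.3 CPM.

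Of 7 measured basement membrane collagens, 3 were lower after ligation, all of them type IV chains, and none was higher. Col4a1, chain α1 of type IV, stood at 1790.3, 772, 953 and 785 CPM and was 2.32-fold (2.14 to 2.51) lower in the ligated than in the normal pancreas, while its head-to-head partner Col4a2, at 669, 359.9, 375 and 370.4 CPM, was 1.86-fold (1.64 to 2.11) lower and missed the rule. The other head-to-head pair, Col4a3 and Col4a4, which are chains of specialised basement membranes, fell from 68.5 to 20.4 and from 121 to 31.3 CPM in this comparison. They were lower again in the control tumour, by 46.6-fold (19.6 to 135) and 16.6-fold (10.3 to 27.3), where they had only 6 and 26 UMIs. The third pair was higher after ligation, but short of the rule or with too few UMIs for it: Col4a5 had 36.9, 72.1, 66.3 and 19.3 CPM, and Col4a6 had 0, 19, 68 and 10 UMIs. In each pair both members thus had the same direction between normal and ligated pancreas. Col15a1 and Col18a1, which bridge basement membrane and stroma, stood at 766, 639.9, 976 and 684 and at 86.1, 86.2, 55.1 and 55.3 CPM and did not reach 2-fold in any comparison.

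Network collagens split by gene. Col6a1, Col6a2 and Col6a3, the common chains of type VI, differed by less than 2-fold after ligation, with Col6a1 at 1179, 1868, 1359 and 907 CPM, Col6a2 at 980.4, 1331, 990.2 and 551 CPM and Col6a3 at 815, 1027, 725 and 459 CPM. A pair of rarer type VI genes that neighbour each other on chromosome 9 went in opposite directions. Col6a5 had 2 UMIs in the normal cells and 243 in the ligated ones, at 3.51, 127, 101 and 45.9 CPM and 36.1-fold (9.89 to 300.0) higher after ligation, while Col6a6 stood at 116, 62.7, 21.6 and 9.67 CPM, with its highest level in the normal pancreas. Col8a1, a short-chain collagen of vessel walls and remodelling tissue, had 40.4, 88.3, 613 and 399 CPM and was 2.18-fold (1.41 to 3.54) higher in the ligated pancreas.

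Most other collagens stayed below the level described. Of those above it, Col14a1, which coats fibrils, stood at 560.5, 781, 579.7 and 375 CPM, Col16a1, also a fibril-associated type, at 121, 189, 195 and 121 CPM, and Col23a1, a transmembrane type, at 12.3, 2.61, 10.1 and 15.5 CPM, and none of the 3 met the rule between normal and ligated pancreas. Col7a1, which makes anchoring fibrils, had 1.76 CPM in the normal and between 13.1 and 16.8 CPM in the other libraries. Col12a1, a fibril-associated collagen known from tissues under load, stood out with 5.27, 143, 552 and 504 CPM. Its 3 UMIs in the normal and 273 in the ligated cells gave a ratio of 27.1-fold (9.16 to 132), and it was higher again in the control tumour.

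All 92 normal and 242 of the 277 ligated fibroblast-like cells fell into 1 sub-cluster, so the ligation could also be read within it. There the collagen share was 2.14% in the normal and 4.41% in the ligated cells. Col1a1 had 2878 and 11781 CPM, Col12a1 5.27 and 102.9, Col6a5 3.51 and 160.3, and Col4a1 1790.3 and 846 CPM. Col8a1, with 40.4 and 70.5 CPM, was the 1 of the 8 higher genes that fell short of 2-fold within it. Outside this sub-cluster, 10 deep ligated cells alone carried 22294 of the 101252 collagen UMIs of the ligated fibroblast-like cells. This sub-cluster also carried acinar and insulin RNA. Summed acinar markers in fibroblast-like cells were 1709, 1894, 63.3 and 264 CPM, with 13, 14, 14 and 14 of 15 markers found, and endocrine markers 420 CPM in the normal and 49.1 CPM in the ligated cells. Their part in the collagen levels was not tested.

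Between the ligated pancreas and the control tumour, single collagens differed more than the total did. The sub-cluster with 242 of the 277 ligated fibroblast-like cells held only 8 of the 1348 control tumour ones. This comparison thus runs across largely different sub-clusters and was not read within any of them. Of 27 measured collagens 4 were higher, where 7.11% of 8732 genes were, and 5 were lower, where 4.34% were. The median log2 ratio was -0.12 for the collagens and 0.14 for all genes. With each cell weighted equally, 3 were lower instead of 5, and 3 were lower at a minimum of 30 CPM. For neither setting is a share of all genes given.

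The 4 that were higher are Col8a1, its partner chain Col8a2, Col11a1 and Col12a1. Col8a1 was 6.94-fold (5.96 to 8.13) higher in the control tumour than in the ligated pancreas, and Col8a2, at 10.5, 16.2, 57.5 and 54.6 CPM, was 3.55-fold (2.48 to 5.27) higher. Col11a1, a fibrillar chain often measured in tumour stroma, had 1.76, 5.75, 53.3 and 40.1 CPM, a difference of 9.28-fold (5.16 to 18.7). Col12a1 was 3.87-fold (3.43 to 4.38) higher. In each of these 4 genes the AF12198 tumour lay nearer to the control tumour than to the ligated pancreas. The 5 that were lower are Col4a3, Col4a4 and Col5a3, given above, with Col6a6, by 2.91-fold (2.33 to 3.61), and Col24a1, by 2.34-fold (1.98 to 2.77).

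Between ligated pancreas and control tumour, the share of cells with a UMI gave the same picture at equal depth. For Col8a1 that share hardly differed between normal and ligated pancreas. After each cell was thinned to 2000 UMIs, which left out 26, 76, 77 and 36 cells, Col12a1 was found in 0, 15.9, 34.6 and 32.4% of the cells, against 3.26, 25.6, 55.8 and 56.2% before thinning. Col8a1 was found in 7.58, 8.96, 30.6 and 29.5% after and in 8.70, 13.4, 39.8 and 42.9% before thinning. For Col4a4 the shares went the other way, with 22.7, 7.96, 0.393 and 0.620% after thinning and 31.5, 11.2, 1.48 and 1.54% before. In the free-RNA reference cells, thinned alike, Col12a1 was found in 0, 0, 1.10 and 0.364%, Col8a1 in 0, 0, 0.809 and 0.112% and Col4a4 in 0, 0, 0 and 0.0561%. All 3 genes were therefore found more often in fibroblast-like cells than in the reference cells wherever their level was described as high.

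Comparing the AF12198 tumour with the control tumour, no collagen was higher by 2-fold in fibroblast-like cells, where 2.53% of 8390 genes were, and 4 of 26 were lower, where 3.59% were. Over all genes the median log2 ratio was -0.26, so this comparison is shifted as a whole, and the collagen median was -0.42. The 4 lower genes are Col4a5, from 66.3 to 19.3 CPM, lower by 3.43-fold (2.81 to 4.21), Col24a1, by 4.18-fold (3.19 to 5.58), Col6a5, by 2.21-fold (1.93 to 2.53), and Col6a6, by 2.23-fold (1.67 to 3.02). Once the shift is removed, or at a minimum of 30 CPM, 2 of them still meet the rule: after centring these are Col4a5, at a log2 ratio of -1.52, and Col24a1, at -1.80. No share of all genes is given for either setting. The remaining differences were all smaller than 2-fold. At a threshold of 1.5-fold, 1 was higher, where 8.57% of genes were, and 10 were lower, where 21.9% were.

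The abundant fibrillar chains separated from each other. Col3a1 was 1.24-fold (1.23 to 1.25) higher in the AF12198 tumour, a log2 ratio of 0.32 or, with the shift removed, 0.58. Col1a1 was 0.871 of its control level, a log2 ratio of -0.20 that turns to 0.06 when centred, and Col1a2 was 0.748, or -0.42 and -0.16. A measure that no scaling moves is the number of Col3a1 UMIs for each Col1a1 UMI in the same cells. It was 0.942 (0.935 to 0.948) in the control and 1.35 (1.33 to 1.36) in the AF12198 tumour, after 1.69 in the normal and 0.957 in the ligated pancreas. Pericyte-like cells had 0.746 (0.654 to 0.850) and 1.55 (1.28 to 1.88) in the tumours, and the free RNA of the reference cells 0.663 and 1.20. The ratio was thus higher in the AF12198 tumour in fibroblast-like and in pericyte-like cells. It was not restricted to them, with 1.06 (0.966 to 1.17) and 3.66 (3.15 to 4.28) in epithelial-like cells. Macrophage-like cells had 0.698 and 1.51. Endothelial-like cells had 0.931 (0.760 to 1.14) and 1.61 (0.981 to 2.68), with overlapping intervals. The reference cells do not add a separate observation, because their collagen UMIs were taken as free RNA from broken cells.

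The common type VI chains all lay below the control level, though short of 2-fold. Col6a1 was 0.667, Col6a2 0.557 and Col6a3 0.633 of the control level, and these stay below the control level after centring, at log2 ratios of -0.32, -0.59 and -0.40. Col14a1 was 0.646, Col16a1 0.621, Col27a1, a fibrillar type, 0.622 and Col8a1 0.652 of the control level, and these also stay below it when centred. Col12a1, Col8a2, Col4a2 and Col1a1 change sign when centred, so no direction is given for them. Of the 26 measured collagens, 5 lay above and 21 below the control level before centring, and 9 and 17 after it.

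Both tumours held 6 fibroblast-like sub-clusters with at least 25 cells in each, and the difference between the tumours was measured within each of them. Sub-cluster 5, among these 6, also had 7 of 12 neutrophil markers raised. Col1a1 ranged from 0.708 to 0.925 and Col1a2 from 0.629 to 0.820 times the control level, below 1 in all 6. Col3a1 ranged from 0.947 to 1.53, with an interval above 1 in 5 of 6. Col6a1, Col6a2, Col6a3, Col14a1, Col16a1, Col5a1 and Col4a5 had an interval below 1 in all 6, and Col4a5 had the widest gap, from 0.157 to 0.509. The exception for Col3a1 was sub-cluster 6, which was led by cell-cycle genes. Other collagens differed between the sub-clusters. Col8a1, at 0.652 of the control level over the class, was 1.78 (1.48 to 2.13) times as high in sub-cluster 4. Col24a1 was at 1.06 (0.476 to 2.20) times the control level in sub-cluster 3 and Col6a5 at 0.964 (0.658 to 1.39) in sub-cluster 5, although both were lower by 2-fold over the class. None of these values is centred, and those of Col1a1 are not read as a direction, because its sign over the class changes when centred.

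**Figure D4:**
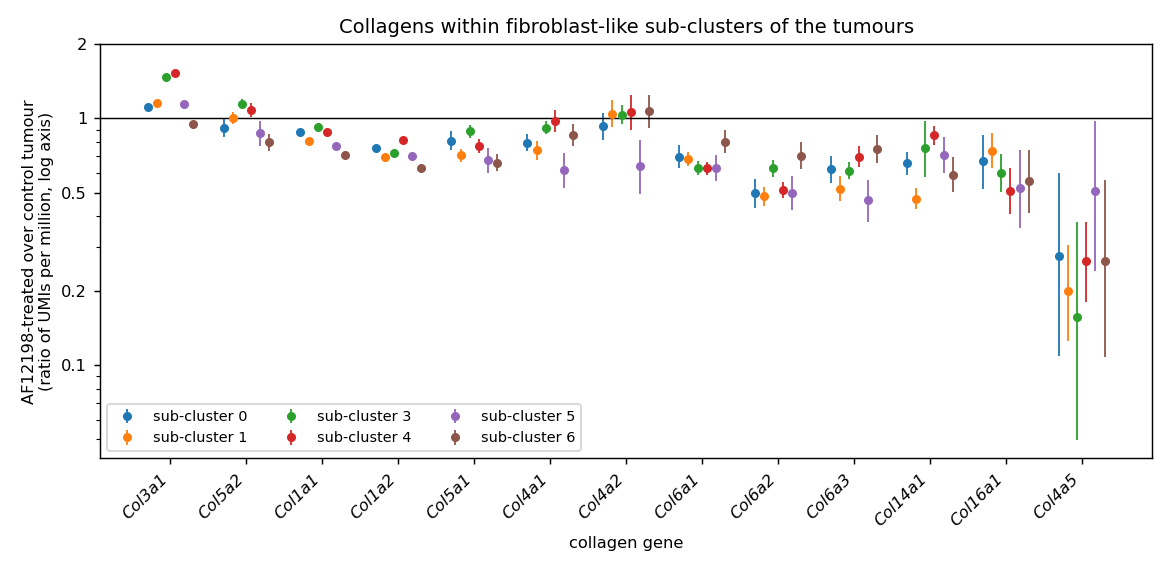
Ratio of level in the AF12198 tumour to that in the control tumour for selected collagens within each of the 6 fibroblast-like sub-clusters with at least 25 cells in both tumours (log axis). Points are ratios, not centred, with 95% counting intervals, and those of Col3a1 lie above 1 in 5 sub-clusters, whereas those of Col1a2 and Col4a5 lie below 1 in all 6. Neutrophil markers were raised in sub-cluster 5.

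The sub-clusters of the control tumour used different collagens. Sub-cluster 3, led by Sema7a, Kcnq3 and Stra6, had the highest levels of 3 of the 4 members that were higher in the tumour, with 1544 CPM of Col8a1, 1196 of Col12a1 and 124 of Col11a1, and little Col14a1, at 86.9 CPM. In it 5 of 12 pericyte and smooth muscle markers were also raised, namely Cspg4, Notch3, Ndufa4l2, Cnn1 and Des, and Cspg4 was among its 10 leading genes. Sub-cluster 0, led by Crocc2, Vtn and Lrg1, was its reverse, with 51.4 CPM of Col8a1, 903 of Col14a1 and 253 of Col6a5. The highest levels of type I were in sub-cluster 1, led by Comp, C1qtnf3 and Itgbl1, with 19186 CPM of Col1a1 and 20716 of Col1a2. Sub-cluster 4, led by Angptl7 and Gap43, held 131 CPM of Col24a1 and 1859 of Col6a1. Lowest in type I was sub-cluster 8, 44 cells that carried all 10 mesothelial markers, with 1849.9 CPM of Col1a1. The sub-clusters were formed without collagen genes, and these levels are given as a description.

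Other cell types' RNA was present in the tumour fibroblast-like cells. Summed neutrophil markers were 228, 170, 916 and 632 CPM, with 2, 10, 12 and 12 of 12 found, erythroid markers 0, 0.522, 1034 and 273 CPM, with 0, 1, 7 and 6 of 7 found, and mesothelial markers 21.1, 216, 444 and 221 CPM, with 2, 8, 10 and 10 of 10 found. Sub-clusters 5, 7, 8 and 9 carried neutrophil, macrophage, mesothelial and erythroid markers. Leaving out these 4 kept all counts of higher and lower collagens within 1.5 times those given. The ratio of control tumour to ligated share then went from 0.964 to 0.988. Sub-cluster 4, in which 3 of 10 mesothelial markers were raised (Wt1, Nkain4 and Rspo1), and sub-cluster 3 were kept in this comparison.

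Genes that make and finish collagen were looked up in lists chosen for their known roles. In fibroblast-like cells of the ligated against the normal pancreas, 7 of 10 measured genes for collagen processing and cross-linking were higher and none lower, with a median log2 ratio of 1.12 beside -0.04 for all genes. In this comparison 8.31% of all genes were higher and 8.05% lower. The 7 include Adamts3, a procollagen N-proteinase, by 6.54-fold (1.71 to 55.7), the cross-linking enzyme Lox, by 2.997-fold (2.24 to 4.08), and its relative Loxl3, by 2.65-fold (1.52 to 4.997). Of 21 measured biosynthesis genes 4 were higher and 2 lower, with Plod2, a lysyl hydroxylase, higher by 4.06-fold (2.97 to 5.70), Sparc, which binds collagen, by 2.25-fold (2.13 to 2.38) and Fkbp10, a folding enzyme, by 2.05-fold (1.49 to 2.88). The lower ones were Colgalt2, a collagen galactosyltransferase, and Tmem38b, an ion channel of the endoplasmic reticulum. Among 8 receptor and uptake genes 1 was higher, the collagen receptor Ddr1, and 1 lower, Antxr2. Of 4 collagen-cleaving genes none was higher and Fap was lower, by 2.58-fold (1.80 to 3.66).

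In the control tumour against the ligated pancreas, where 7.11% of all genes were higher and 4.34% lower, 3 of 21 biosynthesis genes were higher and none lower, namely P4ha3, a prolyl hydroxylase subunit, by 2.79-fold (1.87 to 4.35), Colgalt1, by 2.10-fold (1.84 to 2.40), and Plod2, by 2.002-fold (1.84 to 2.18). Lox was higher again, by 2.72-fold (2.49 to 2.98), while Pcolce2, an enhancer of procollagen cleavage, was lower by 4.26-fold (3.57 to 5.08), Adamts3 by 3.03-fold (2.08 to 4.36) and Adamts14 by 2.95-fold (2.10 to 4.09), which makes 1 higher and 3 lower of 10. Itga1, a subunit of a collagen-binding integrin, was 3.61-fold (2.80 to 4.74) higher, and Itga11 and Antxr2 were lower, of 8 measured. Of 6 cleaving genes 2 were higher, the interstitial collagenase Mmp13, with 1 UMI in the ligated cells and 286 in the tumour, and Mmp9, a gene that neutrophils are known for and that had no UMI in the ligated fibroblast-like cells. With AF12198, where 2.53% of all genes were higher and 3.59% lower, 1 of 21 biosynthesis genes was higher, the prolyl isomerase Ppib, from 254 to 749 CPM, 2.95-fold (2.82 to 3.08), and no gene of the other 3 lists met the rule in either direction. Ppib was also higher in endothelial-, epithelial- and pericyte-like cells, by 4.62-fold (3.84 to 5.60), 2.02-fold (1.93 to 2.12) and 4.01-fold (2.90 to 5.64), so it was not restricted to the cells that make fibrillar collagen.

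In endothelial-like cells basement membrane collagens took 90.8, 79.5, 92.1 and 96.2% of the collagen UMIs. The class had 261, 130, 502 and 344 cells and joined a blood vessel cluster, led by Aplnr and Emcn, with a lymphatic one, led by Ccl21a and Mmrn1. Lymphatic cells were 3 of 261 in the normal but 38 of 130 in the ligated pancreas, so the blood vessel cluster is described alone here. In it Col4a1 stood at 2110.2, 2277, 3873 and 2957 CPM, Col4a2 at 1379, 1408, 1588 and 1528 CPM and Col15a1 at 424, 623, 966 and 621 CPM. None of these 3 met the 2-fold rule between neighbouring groups within the cluster.

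Col13a1 and Col18a1 ran against each other in blood vessel cells from the normal pancreas to the control tumour, whereas both stood higher in the AF12198 than in the control tumour. Col13a1 had 254, 147, 59.3 and 75.6 CPM and was 2.47-fold (1.56 to 3.79) lower in the control tumour than in the ligated pancreas. Col18a1 had 21.4, 147, 279 and 457 CPM, and was 6.85-fold (3.49 to 14.1) higher in the ligated than in the normal pancreas. In the AF12198 tumour it was 1.64-fold (1.46 to 1.84) as high as in the control tumour, short of the rule. Col8a1 had 13.8, 68.04, 59.9 and 21.5 CPM, and it was lower in the AF12198 than in the control tumour by 2.79-fold (1.90 to 4.17).

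Over the whole endothelial-like class, 9 of 13 measured collagens were higher in the ligated than in the normal pancreas, where 18.7% of 9059 genes were, and Col13a1 alone was lower, where 8.69% were, with median log2 ratios of 1.29 for the collagens and 0.23 for all genes. Of the 9, 7 are fibrillar or type VI genes with at most 47 UMIs in the ligated cells, such as Col1a1 at 119.8 CPM beside 251 in the reference cells. When the free RNA of the reference cells is subtracted, 2 remain, Col8a1 and Col18a1, and no share of all genes is given for this setting. Between control tumour and ligated pancreas, Col4a1, Col15a1 and Col18a1 were higher among 16 measured, where 14.4% of genes were, and 4 were lower, where 18% were, with medians of -0.51 for the collagens and -0.14 for all genes. None of the 3 was higher when the lymphatic cluster was left out. With AF12198, Col23a1 was the 1 of 12 that was higher, where 4.56% of genes were, and Col1a1, Col1a2, Col3a1 and Col8a1 were lower, where 7.74% were, with medians of -0.47 and -0.21. Of these, the 3 fibrillar genes lay below the reference cells in CPM in both tumours, but above them when counted per cell. Col1a1 had 203 UMIs in 502 endothelial-like and 2560 in 9432 reference cells of the control tumour. In the AF12198 tumour it had 28 in 344 and 766 in 10802. Col23a1 belonged to the lymphatic cluster, where it stood at 19.9, 21.4 and 114 CPM in the ligated pancreas and the 2 tumours, 5.33-fold (2.48 to 13.1) higher with AF12198.

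**Figure D5:**
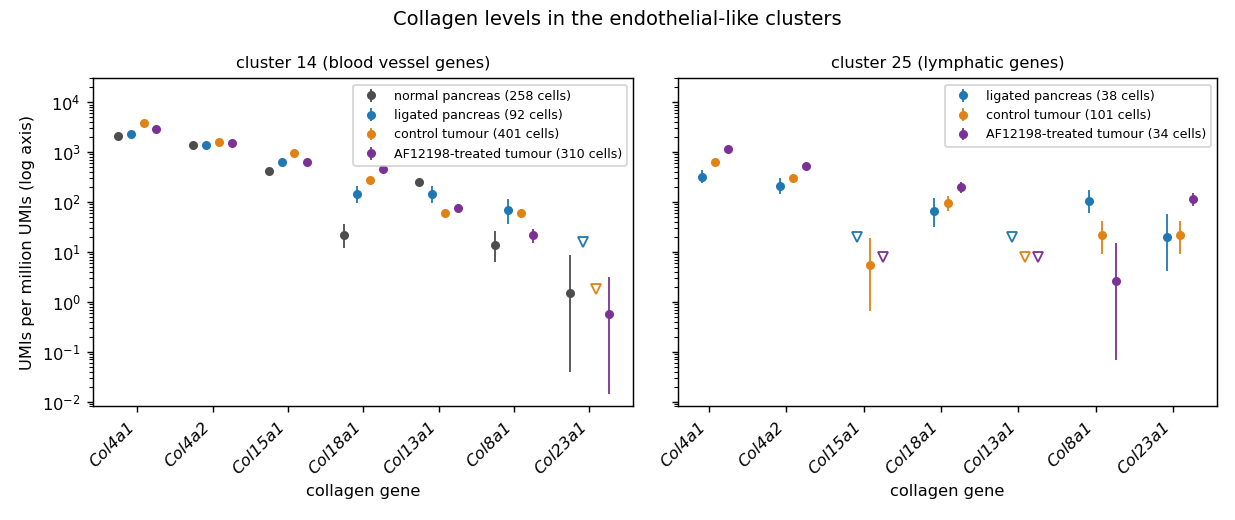
Level of 7 collagens in the blood vessel (cluster 14) and lymphatic (cluster 25) endothelial-like clusters, in CPM on a log axis with 95% counting intervals, for libraries with at least 25 cells in the cluster (open triangle: no UMI, drawn at the level of 3 counts). Col15a1 and Col13a1 are high in the blood vessel cluster, and Col23a1 is highest in lymphatic cells of the AF12198 tumour at 114 CPM.

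Pericyte and smooth muscle-like cells, the mural cells of vessels, numbered 90 and 37 in the control and AF12198 tumours and 9 and 20 in the other libraries, below the 25 asked for in a comparison. They were led by Rgs5, Notch3 and Higd1b, but 10 of 13 endothelial markers were raised in them too. Their collagens combined both stromal types, with Col4a1 at 2933 and 2714 CPM, Col18a1 at 651 and 696 CPM and Col6a3 at 1002 and 463 CPM in the 2 tumours. With AF12198, 9 of 21 collagens were lower, where 18.8% of 8994 genes were, and none was higher, where 11.2% were. The median log2 ratio was -0.81 for these collagens and -0.18 for all genes. The better counted of them are Col1a2, lower by 4.37-fold (3.54 to 5.46), Col1a1, by 2.28-fold (1.92 to 2.72), Col12a1, by 3.21-fold (1.87 to 5.81), Col6a3, by 2.16-fold (1.80 to 2.61), and Col6a1, by 2.11-fold (1.64 to 2.73). The other 4, Col4a4, Col4a5, Col7a1 and Col16a1, had at most 4 UMIs in the AF12198 tumour. Summed endothelial markers in these cells were 2064 and 3552 CPM in the 2 tumours, and their part in these differences was not tested.

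Epithelial-like cells had few collagen UMIs for their number, at 0.0547, 0.0601, 0.0802 and 0.0701% of their UMIs. They comprised a duct-like cluster, with Onecut1 and Cftr among its leading genes, and 2 clusters with at most 5 cells outside the tumours, led by Tff1 and by Onecut2. Basement membrane collagens took 66.6% of their collagen UMIs in the normal pancreas and 50.6, 42.2 and 49.4% in the others. Types I and III took 6.29, 25.8, 18.5 and 13.4%. The shares given here were not corrected for free RNA. Network collagens were 1.99, 2.63, 16.97 and 21.9%. Col18a1 stood at 133, 112, 147 and 176 CPM and Col4a1 at 91.1, 70.3, 128 and 102 CPM, with no 2-fold difference in any comparison.

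A pair of type VI chains was far higher in the epithelial-like cells of the tumours. Col6a1 had 3.57, 4.51, 90.8 and 93.3 CPM and was 20.1-fold (10.9 to 42.1) higher in the control tumour than in the ligated pancreas. Col6a2, which neighbours it on chromosome 10, had 2.73, 4.51, 34.3 and 46.5 CPM and was 7.61-fold (4.11 to 15.96) higher. The third chain of the common type VI molecule, Col6a3, had 5.93 and 4.73 CPM in the tumours. Free-RNA reference cells held 20.8 and 3.76 CPM of Col6a1, below the epithelial level in both tumours. Of the 1500 Col6a1 UMIs in the control tumour, 1301 lay in the cluster led by Onecut2 and 168 in that led by Tff1. These clusters were nearly absent from the ligated pancreas, so the ratios compare different epithelial-like cells.

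Col4a5 and Col9a3, a cartilage-type chain, showed the opposite order over the class. Col4a5 had 77.7, 73.9, 15.8 and 16.6 CPM and Col9a3 27.8, 20.3, 1.94 and 1.68 CPM, lower in the control tumour than in the ligated pancreas by 4.68-fold (3.83 to 5.71) and 10.5-fold (6.51 to 17.03). Within the duct-like cluster, which held 84 and 86 tumour cells, Col4a5 stood at 77.7, 74.4, 60.8 and 39.9 CPM and Col9a3 at 27.8, 20.5, 35.9 and 19.4 CPM, where neither was lower by 2-fold. Of the control tumour UMIs, however, 194 of 261 for Col4a5 and 6 of 32 for Col9a3 lay in the cluster led by Onecut2. Duct-like cells were all of the epithelial-like cells in the normal pancreas and few of those in the tumours. Their part in the class values was not tested.

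Counts over the epithelial-like class were as follows. Between ligated and normal pancreas 3 of 9 collagens were higher, where 2.48% of 9462 genes were, and Col4a2 was lower, where 1.49% were. The 3 were Col1a1, Col1a2 and Col3a1, and none was higher once free RNA was subtracted. Between control tumour and ligated pancreas 4 of 12 were higher, where 16.3% of genes were, namely Col4a2, Col5a1, Col6a1 and Col6a2, and 2 were lower, where 25.1% were, with medians of 0.43 and -0.19. With AF12198 none of 11 was higher, where 2.23% of genes were, and 4 were lower, where 5.39% were. These were Col27a1, from 99.5 to 46.1 CPM, Col5a1, from 45.2 to 22.6 CPM, and Col1a1 and Col1a2. In CPM the last pair lay below the free-RNA reference cells, but CPM does not allow for depth, and per cell the order was reversed. Col1a1 had 826 UMIs in 1272 epithelial-like and 2560 in 9432 reference cells of the control tumour. In the AF12198 tumour it had 217 in 1183 and 766 in 10802. The medians were 0.04 for the collagens and -0.33 for all genes. After centring 2 of the 4 met the rule, with no share of all genes given for that setting.

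Much of the collagen RNA of the remaining cell types lay near the free-RNA level, with exceptions of which some are given here. Macrophage-like cells had 112, 14.99, 43.05 and 28.1 CPM of Col14a1, where the reference cells had 0, 13.7, 6.74 and 2.10 CPM, although the normal value rests on 8 UMIs from 25 cells. Dendritic-like cells had 22.2 and 8.27 CPM of Col27a1 in the tumours. Endocrine-like cells of the normal pancreas, 111 in number, had 75.5 CPM of Col4a1. Acinar-like cells of the control tumour, 57 in number, had 466 CPM of Col1a1 and 494 CPM of Col3a1, beside 141 and 93.8 CPM in the reference cells. The 326 acinar-like cells of the AF12198 tumour had 114 CPM of Col3a1, beside 40.3 CPM. In the ligated pancreas macrophage-like cells had 363 CPM of Col1a1, beside 251 CPM. The source of these UMIs was not tested. Plasma-like cells had no collagen that reached 10 CPM and exceeded the reference cells in a library with at least 25 of them.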

How the data were processed

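Single-cell RNA was profiled in 4 mouse libraries, 1 for each group, with the 10x Genomics 3′ kit. The authors deposited UMI counts per gene and cell barcode, which are whole numbers with no normalisation, which Cell Ranger 6.0.0 produced against build mm10, per the submitters' processing notes. Neither annotation release nor strand setting nor cell-calling rule is given in the sources used here.

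Cells with at least 250 genes, 500 UMIs and at most 20% mitochondrial UMIs were kept. Scrublet marked 1, 0 and 2163 doublets in the normal, ligated and control tumour libraries. In the AF12198 library its threshold marked under 0.5%, so the top 5% of cells by score, 994 in number, were removed. This rule was kept for large libraries and was not applied to the normal and ligated ones, which also lay under 0.5%. Doublet removal thus differed between the libraries. Kept cells held 11235204, 5315805, 80398550 and 85728056 UMIs, which set the precision of each level. Each cell was scaled to a total of 10000, log-transformed, and clustered with scanpy 1.11.5 (2000 variable genes without collagens, 40 principal components, 20 neighbours, Leiden resolution 1.0) into 29 clusters. These were named from markers raised at least 2-fold in at least 10% of cells, at least 3 to a name, by thresholds chosen after the data had been seen. Clusters held 15 named cell types.

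UMIs were summed per cell type and library and written as CPM with exact Poisson intervals. Ratios have exact conditional intervals, shares of cells or UMIs exact binomial (Clopper-Pearson) ones. A gene counted as higher or lower at 2-fold, with a mean of at least 10 CPM in the pair of libraries, and only cell types with at least 25 cells in both were compared. The rule was tested on simulated counts. The named members are all collagens at a mean of 10 CPM in fibroblast-like cells, and in other cell types up to 10 by level among those above the reference cells; of the other lists, up to 3 genes a direction with the largest ratios. The members, lists and markers were chosen with earlier results of these data known. Alternatives were the cell filter, doublets, resolution, free RNA, CPM total, minimum level, fold and centring, with 3 more added after the data had been seen. Gm42418, which collects ribosomal reads, took 7.45, 15.0, 4.49 and 4.91% of UMIs. Levels of different genes were not ranked, because 3′ counts are not per length. Ratios of UMIs between chains and shares of collagen groups were read only for how they differ between libraries. Positions are from GENCODE M21 and promoter sequences from RefSeq, both on GRCm38, the build that mm10 names.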

Additional observations from a re-analysis of the deposited data

Results flagged for a closer look

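Between the control tumour and the ligated pancreas, a pair of collagens moved one way in fibroblast-like cells and the other way in endothelial-like cells, which with 1 library per group was not tested. Col8a1 had a log2 ratio of 2.80 in fibroblast-like and -0.68 in endothelial-like cells. Within the blood vessel cluster alone Col8a1 stood at 68.0 CPM in the ligated pancreas and 59.9 CPM in the control tumour. Col18a1 had a log2 ratio of -0.65 in fibroblast-like and 1.14 in endothelial-like cells. In that cluster Col18a1 stood at 147 CPM in the ligated pancreas and 279 CPM in the control tumour, short of the 2-fold rule. Of the 4 log2 ratios, the Col8a1 ratio in fibroblast-like cells and the Col18a1 ratio in endothelial-like cells met the 2-fold rule.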

How the results depend on the processing

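No paired analysis was possible because each group had 1 library, and for the same reason no replicate could be left out. Depth limits the normal pancreas most, with 92 fibroblast-like cells and 20 reference cells. Of 334 recomputed counts and shares, 235 kept their direction and moved little, 92 moved and 7 reversed. The cause of each change below was not tested unless stated. At a 1.5-fold threshold, which by construction calls more genes, fibroblast-like cells had 13 higher and 5 lower collagens after ligation, where 17.7 and 19.6% of all genes were, and 1 higher and 10 lower with AF12198, where 8.57 and 21.9% were. With AF12198 2 were lower after centring and 2 at a minimum of 30 CPM, and between control tumour and ligated pancreas 3 were lower at that minimum and 3 with equal weight per cell. These counts have no share of all genes beside them. The ratio of collagen share in fibroblast-like cells, ligated over normal, was 2.41 without mitochondrial and ribosomal-type UMIs and 1.82 with equal weight. For control tumour over ligated it was 0.867 without those UMIs, 0.886 with doublets kept, 0.998 at resolution 2.0, 0.988 without mixed sub-clusters and reversed to 1.26 with equal weight, and for AF12198 over control 0.873 without those UMIs, 0.927 with doublets and 0.905 under the stricter cell filter. In endothelial-like cells, ligated over normal was 0.721 with free RNA subtracted and reversed to 1.28 at resolution 0.5, 1.23 without the lymphatic cluster and 1.10 with equal weight. There control tumour over ligated was 1.94, 1.59, 1.33, 1.34 and 1.34 with free RNA subtracted, doublets kept, resolution 0.5, no lymphatic cluster and equal weight, and AF12198 over control 0.856, 0.859, 0.775, 0.798 and 0.904 in the same order. In epithelial-like cells, ligated over normal was 1.21 with collagens among the variable genes, with doublets and at resolution 2.0, 1.19 without mitochondrial and ribosomal-type UMIs and under the stricter filter, and reversed to 0.800 with free RNA subtracted and 0.817 with equal weight. There control tumour over ligated was 1.26 without those UMIs, 1.69 with free RNA subtracted and reversed to 0.932 with equal weight, and AF12198 over control was 0.928 with free RNA subtracted, 0.821 with doublets, 0.943 under the stricter filter and 0.723 with equal weight. The percent of collagen UMIs in fibroblast-like cells was 62.4 in the normal library under the stricter filter. In the ligated library it was 96.9 with free RNA subtracted, 92.2 at resolution 2.0 and 96.5 under the stricter filter. In the control tumour it was 93.2 with collagens as variable genes, 92.9 with doublets, 95.4 with free RNA subtracted, 72.3 at resolution 2.0, 94.2 under the stricter filter and 80.3 without mixed sub-clusters, and in the AF12198 tumour 89.1, 91.1, 70.3, 90.1 and 79.8 under the last 5 of these. The values without mixed sub-clusters are lower by construction. The UMIs of those sub-clusters leave the fibroblast-like cells but stay in the library total. Among 1478 values of single genes 9 reversed. After ligation, free RNA subtraction gave log2 ratios of -1.04 for Col1a1 and -0.26 for Col6a1 in endothelial-like cells and of -2.12 for Col1a2 and -0.66 for Col3a1 in epithelial-like cells. Col5a3 gave -0.0129 with doublets kept in endothelial-like cells and Col1a2 -0.12 with equal weight in epithelial-like cells. Col27a1 in endothelial-like cells, control tumour over ligated, gave 1.32 with collagens as variable genes, 1.64 with doublets and 1.10 under the stricter filter.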
